A study of Mus musculus with 10 samples.

Results

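Genes that move or bind zinc were examined in mouse neural stem cells with and without Atrx. These 10 genes are 5 importers of the ZIP (Slc39) family, Slc39a12, Slc39a14, Slc39a8, Slc39a6 and Slc39a10, the exporters Slc30a1 and Slc30a10 of the ZnT (Slc30) family, and the metallothioneins Mt1, Mt2 and Mt3. They were taken by name from a table of 21101 genes, and all 10 passed the filter on low values (at least 1 TPM, a length-corrected transcript share, in at least 2 of 10 libraries), as did 15660 genes in all. The set was chosen by measured values as well as by name: Slc39a12 had the largest difference between differentiation and proliferation medium in the control lines of any tested gene. Values of that contrast are therefore given as a description, with no test.

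ZIP transporters carry zinc into the cytosol from outside the cell or from vesicles, and ZnT transporters carry it out of the cytosol. Metallothioneins are small cysteine-rich proteins that bind zinc and copper and buffer free zinc in the cytosol. When cytosolic zinc is high, the transcription factor MTF-1 binds metal response elements in promoters of metallothionein genes and of Slc30a1 and activates them. In the brain, Mt1 and Mt2 are mainly astrocyte genes that metals, oxidative stress and glucocorticoids induce, while Mt3 is enriched in the nervous system and responds little to metals.

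The libraries were bulk RNA sequencing of neural stem cell lines that are all p53-null and all transduced with mutant IDH1(R132H), Atrx-deleted and control lines alike. The 3 Atrx-deleted lines, mA16d#4, mA19d#4 and mA19d#7, were each sequenced after 8 days in differentiation medium and in proliferation medium, and so were the control lines Control NSC#1 and Control NSC#2. Differentiation medium was neural basal medium with B27 and no growth factors, and proliferation medium held EGF and bFGF at 20 ng/ml. Each line gave 1 library per medium, so the groups hold 3 libraries each for the Atrx-deleted lines and 2 each for the control lines. How each line was derived, and whether the lines come from separate animals, is not given in the sources used here. The p-values of the gene tests measure the spread between libraries of these lines within groups, pooled over both media. Libraries of the same line were counted as separate.

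Atrx transcript was reduced but present in the Atrx-deleted lines. It averaged 51.9 ± 4.05 TPM (SD, n = 3) in Atrx-deleted lines and 127 ± 0.623 TPM (n = 2) in control lines in differentiation medium, and 62.8 ± 17.4 TPM and 156 ± 9.61 TPM in proliferation medium (2-sided exact permutation p = 0.1 in each medium, the smallest that 3 against 2 libraries allow). The library labelled mA19d#7 in differentiation medium stood apart. Its rank correlation over genes was 0.957 with the proliferation library of mA16d#4, 0.926 with that of its own line and 0.915 with the differentiation library of mA19d#4. Many results that rest on it, though not all, are given with and without it. Whether its label is right was not tested, and every difference between media in line mA19d#7 depends on that label. At least 9 of 10 neural stem cell markers reached 1 TPM in every library of each group, whereas 8 microglia and macrophage markers summed to between 3.53 and 18.2 TPM in any library. In such bulk libraries, fewer cells of a type and less RNA per cell cannot be told apart. All libraries hold the same set of sorted values, so sequencing depth is unknown and a shift of total expression cannot be seen.

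Sequences upstream of the start sites are shown for the 3 metallothioneins, which lie side by side on chromosome 8, and for the transporters that differed most between the groups, Slc39a12 and Slc30a10. They are the 250 bases before the RefSeq start on GRCm38.p6, on the strand of the gene and 5′ to 3′. Capitals mark the core of a metal response element, TGCACNC or TGCGCNC, found on either strand.
Mt2, chr8:94172368-94172617: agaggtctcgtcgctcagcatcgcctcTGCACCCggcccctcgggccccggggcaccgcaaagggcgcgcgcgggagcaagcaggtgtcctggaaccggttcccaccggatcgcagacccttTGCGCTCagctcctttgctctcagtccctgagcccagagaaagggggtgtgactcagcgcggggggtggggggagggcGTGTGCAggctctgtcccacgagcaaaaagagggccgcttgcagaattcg
Mt1, chr8:94178839-94179088: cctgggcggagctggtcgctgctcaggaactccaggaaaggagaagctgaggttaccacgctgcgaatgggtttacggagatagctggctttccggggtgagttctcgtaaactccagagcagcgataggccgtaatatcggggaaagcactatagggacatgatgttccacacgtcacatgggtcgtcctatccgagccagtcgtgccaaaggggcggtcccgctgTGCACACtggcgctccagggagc
Mt3, chr8:94152357-94152606: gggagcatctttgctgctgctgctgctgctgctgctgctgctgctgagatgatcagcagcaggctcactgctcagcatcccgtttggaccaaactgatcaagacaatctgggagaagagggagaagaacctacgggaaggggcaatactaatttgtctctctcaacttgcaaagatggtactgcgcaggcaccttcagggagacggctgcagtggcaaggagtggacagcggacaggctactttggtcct
Slc30a10, chr1:185454598-185454847: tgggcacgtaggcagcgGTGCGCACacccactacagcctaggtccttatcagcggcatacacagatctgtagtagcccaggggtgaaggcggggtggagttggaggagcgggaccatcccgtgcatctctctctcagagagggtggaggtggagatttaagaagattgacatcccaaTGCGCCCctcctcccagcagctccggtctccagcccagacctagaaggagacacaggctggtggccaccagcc
Slc39a12, chr2:14388148-14388397: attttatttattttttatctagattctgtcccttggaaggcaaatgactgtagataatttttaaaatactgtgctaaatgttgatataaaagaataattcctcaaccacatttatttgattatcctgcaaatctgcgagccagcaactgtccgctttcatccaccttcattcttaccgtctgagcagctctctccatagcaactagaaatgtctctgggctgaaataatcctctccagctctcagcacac
The Mt2 window held 3 matches and the Mt1 window 1, at bases 23 to 17 before the start. The Slc30a10 window also held 3 matches, but those at bases 233 to 227 and 232 to 226 overlap on opposite strands. The windows of Mt3 and Slc39a12 held none. Slc30a1 had 1 match. Slc39a8 had 1 match in the window that ends at 135825656 and none in the window that ends at 135825278. Slc39a10 had none in either of its windows. An entry existed for 8 of the 10 genes, those without being Slc39a14 and Slc39a6. Of 32851 mouse windows of the same length, 21.4% held at least 1 match and 1.26% at least 3, and among the 14793 windows of tested genes the shares were 29.0% and 2.04%. These counts hold for the printed windows alone, and matches outside them were not searched. The Mt2 window ends at 94172617, whereas the GENCODE annotation starts Mt2 at 94172664. The Slc39a12 window ends at 14388397, past the GENCODE start at 14388316. The Mt1 window ends at 94179088, past the GENCODE start at 94179082. Another start could therefore give another count. A match is a description of letters and not a bound site.

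**Figure D1:**
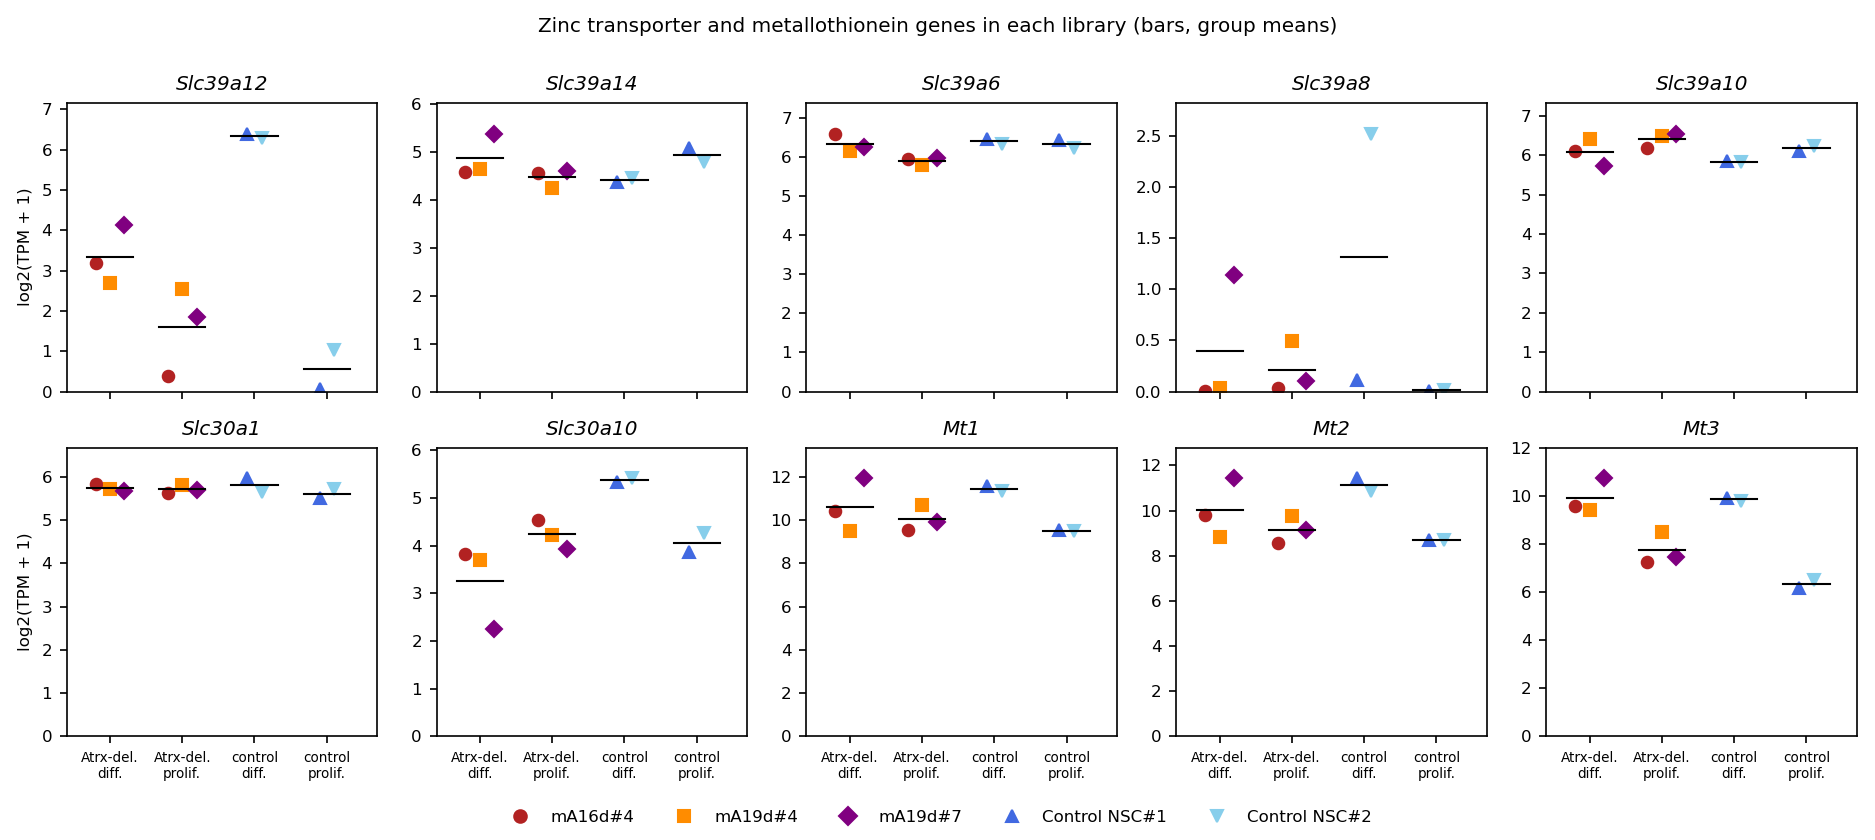
Level of each of the 10 genes in each library, as log2(TPM + 1) on an axis from 0, by group, with 1 point per library (symbols give the line) and a black bar at the group mean. Slc39a12 and Slc30a10 sit lower in all 3 Atrx-deleted libraries than in both control libraries in differentiation medium, whereas Slc30a1, between 44.5 and 61.3 TPM in all 10 libraries, forms a narrow band.

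In differentiation medium, 1 of the 9 genes tested between Atrx-deleted and control lines passed the threshold of 0.05 on the adjusted p (limma, Benjamini-Hochberg over all tested genes), Slc30a10, which was lower in Atrx-deleted lines. Of all tested genes, 2.89% passed in either direction in this comparison and 1.33% were lower. It was also the 1 of 9 at an unadjusted p under 0.05, against 20.2% of all tested genes. The median difference over the 9 tested genes was -0.07, beside 0.02 over all tested genes. This comparison shares the control differentiation libraries with the control response, which the choice of genes used. Nothing was therefore read from its count or median.

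The other comparisons gave no call among the 10 genes. In proliferation medium none of 9 genes passed, Slc39a12 again left untested, against 0.46% of all tested genes, and 2 did so at an unadjusted p under 0.05, against 13.7%. The median difference there was 0.20, beside -0.02 over all tested genes. That comparison shares the control proliferation libraries with the control response, so nothing was read from its count or median either. Between differentiation and proliferation medium within the Atrx-deleted lines none of 10 passed, against 0.083% of all tested genes, and 4 did so unadjusted, against 14.8% (median 0.42, beside 0.01). The difference of the responses to medium between Atrx-deleted and control lines passed for none of 9 genes, against 0.00639% of all tested genes. Unadjusted, 3 did so, against 7.02% (median -1.12, beside 0.03). The choice of genes used the control response, which enters this difference, so nothing was read from its count or median. In the control lines, where 4.51% of all tested genes passed between media, the 10 genes were not tested.

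Among the importers, Slc39a12 differed most. It encodes ZIP12, a zinc importer known mainly from brain. Slc39a12 stood at 8.09, 5.46 and 16.5 TPM in the Atrx-deleted lines mA16d#4, mA19d#4 and mA19d#7 in differentiation medium, against 83.0 and 77.5 TPM in the control lines. All 3 Atrx-deleted libraries were below both control libraries, with means of 10.005 ± 5.74 TPM (n = 3) and 80.2 ± 3.89 TPM (n = 2). On the log2(TPM + 1) scale, used for all differences here, Atrx-deleted minus control was -3.01 there. Leaving out mA19d#7 gave -3.41. Neither value has a test, because the choice of the gene rests on those control libraries.

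In proliferation medium Slc39a12 was low in most lines. It had 0.316, 4.81 and 2.61 TPM in the Atrx-deleted lines and 0.0489 and 1.05 TPM in the control lines, and the groups overlapped. The difference of 1.04 has no test, because the choice of the gene used these control libraries too. The control lines thus had 5.79 more log2 units in differentiation than in proliferation medium, the first of 15660 genes, followed by Tmem132b at 5.42 and Ctgf at 4.64. In the Atrx-deleted lines the difference was 1.74 ± 0.56, place 64 of 15660, and missed the threshold (adjusted p = 0.208, and 1.34, adjusted p = 0.226, without the mA19d#7 differentiation library). Line by line it was 2.79 in mA16d#4, 0.15 in mA19d#4 and 2.27 in mA19d#7, against 6.32 in Control NSC#1 and 5.26 in Control NSC#2.

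Slc39a14 and Slc39a8, which encode ZIP14 and ZIP8 and carry manganese and iron as well as zinc, were at very different levels. Slc39a14 had 23.1, 24.1 and 40.9 TPM in Atrx-deleted lines against 19.9 and 21.1 TPM in control lines in differentiation medium. In proliferation medium it had 22.5, 18.0 and 23.6 TPM in Atrx-deleted lines against 33.1 and 26.9 TPM in control lines. The groups did not overlap in either medium, higher in Atrx-deleted lines in the first and lower in the second, but neither difference passed the test (0.45, adjusted p = 0.378, and -0.47, adjusted p = 0.476). Without the mA19d#7 differentiation library, the highest, the first was 0.19 (adjusted p = 0.614). Each Atrx-deleted line had more Slc39a14 in differentiation than in proliferation medium, by 0.03 in mA16d#4, 0.40 in mA19d#4 and 0.77 in mA19d#7, whereas the control lines had less, by -0.71 and -0.34. The difference of these responses was 0.92 ± 0.38 with an adjusted p of 0.660, and 0.67 without that library.

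Slc39a8 was close to the lowest level of the table in most libraries. It reached 1 TPM only in the differentiation libraries of mA19d#7, at 1.20 TPM, and of Control NSC#2, at 4.74 TPM, and it passed the filter through those libraries. The other Atrx-deleted libraries in differentiation medium had 0.00391 and 0.022 TPM and the other control library 0.0793 TPM. At such levels no direction was read.

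Slc39a6 and Slc39a10 encode ZIP6 and ZIP10, closely related importers that can pair in the plasma membrane. Both were well above the other importers of the group in proliferation medium in every line, on the TPM scale, which is per length. Slc39a6 had 95.9, 70.6 and 75.4 TPM in Atrx-deleted lines against 87.9 and 80.0 TPM in control lines in differentiation medium, and the groups overlapped (difference -0.07). In proliferation medium it had 60.7, 54.7 and 61.6 TPM in Atrx-deleted lines, below the 86.2 and 74.1 TPM of both control lines, yet the difference of -0.43 ± 0.17 did not pass (adjusted p = 0.304). All 3 Atrx-deleted lines had more Slc39a6 in differentiation than in proliferation medium, with no overlap (0.43, adjusted p = 0.239), and the control lines differed by 0.03 and 0.11.

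Slc39a10 had 68.3, 84.7 and 52.2 TPM in Atrx-deleted lines against 56.5 and 55.6 TPM in control lines in differentiation medium. It had 71.6, 89.4 and 92.3 TPM in Atrx-deleted lines against 68.0 and 74.3 TPM in control lines in proliferation medium. The groups overlapped in both media (0.25, adjusted p = 0.528, and 0.24, adjusted p = 0.666), in differentiation medium through mA19d#7 alone. Without that library the difference there was 0.43 (adjusted p = 0.164) and both remaining Atrx-deleted libraries were above both control libraries. All 5 lines had less Slc39a10 in differentiation than in proliferation medium, by -0.07 to -0.81 in the Atrx-deleted and by -0.26 and -0.41 in the control lines.

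**Figure D2:**
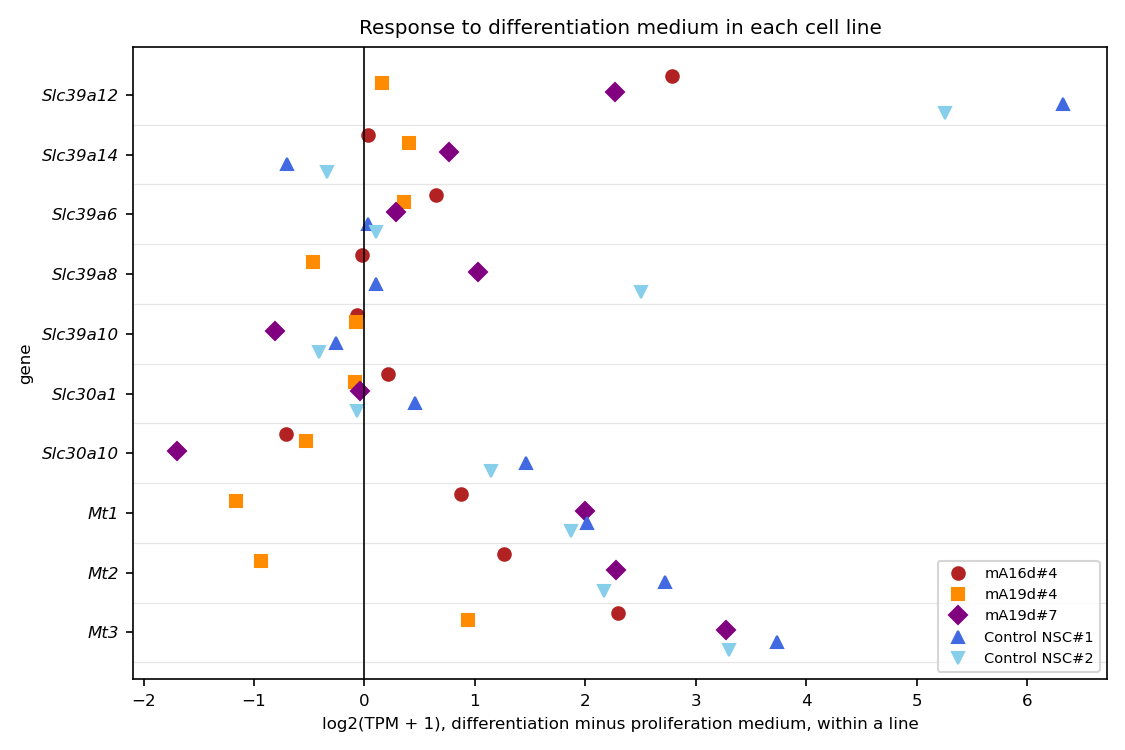
Difference of log2(TPM + 1) between differentiation and proliferation medium for each of the 10 genes, with 1 point per cell line, Atrx-deleted lines drawn above control lines within a gene. Slc30a10 lies below 0 in all 3 Atrx-deleted lines and above 0 in both control lines, Slc39a14 the other way round, and Mt1 and Mt2 lie below 0 in mA19d#4 alone.

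Of the exporters, Slc30a10 differed between the groups and Slc30a1 did not pass the test. Slc30a10 encodes ZnT10, a plasma membrane transporter whose main cargo is manganese, and it was the gene that passed the test. It had 13.3, 11.99 and 3.75 TPM in the Atrx-deleted lines mA16d#4, mA19d#4 and mA19d#7 in differentiation medium, against 39.3 and 41.6 TPM in the control lines. Every Atrx-deleted library was below every control library, with means of 9.67 ± 5.16 TPM (n = 3) and 40.4 ± 1.62 TPM (n = 2). The difference was -2.11 ± 0.43 (adjusted p = 0.0339) and, without the mA19d#7 library, which was the lowest, -1.60 (adjusted p = 0.0163). This comparison shares the control differentiation libraries with the control response, which the choice of the set used.

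The Slc30a10 call was lost in 10 of 25 alternatives. These were a fit of the compared groups alone (adjusted p = 0.185), no filter on low values (0.0858), a fit without the differentiation library of Control NSC#1 (0.245) or Control NSC#2 (0.174), without the proliferation library of Control NSC#1 (0.0612) or Control NSC#2 (0.0613), without the proliferation library of mA19d#4 (0.0606), and without both libraries of the line Control NSC#1 (0.392), Control NSC#2 (0.285) or mA19d#4 (0.0716). The log2 difference stayed between -2.40 and -1.60 in all 25 alternatives.

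In proliferation medium Slc30a10 had 22.3, 17.8 and 14.4 TPM in Atrx-deleted lines against 13.6 and 18.2 TPM in control lines, and the groups overlapped (0.17, adjusted p = 0.903). All 3 Atrx-deleted lines had less in differentiation than in proliferation medium, by -0.71 in mA16d#4, -0.53 in mA19d#4 and -1.69 in mA19d#7, whereas the control lines had more, by 1.46 and 1.15. The response of the Atrx-deleted lines was -0.98 ± 0.39 (adjusted p = 0.281) and the difference of the responses -2.28 ± 0.61 (adjusted p = 0.425). Without the mA19d#7 differentiation library these values were -0.47 and -1.77, the second with an adjusted p of 0.137.

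Slc30a1 encodes ZnT1, the main zinc exporter of the plasma membrane and a known MTF-1 target. Its log2(TPM + 1) values spanned the smallest range of the 10 genes over the libraries. Slc30a1 had 56.1, 51.9 and 49.6 TPM in Atrx-deleted lines against 61.3 and 49.2 TPM in control lines in differentiation medium, and 48.2, 55.1 and 51.0 TPM against 44.5 and 51.7 TPM in proliferation medium. The groups overlapped in both media, with differences of -0.06 and 0.10 (adjusted p = 0.842 in proliferation medium).

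**Figure D3:**
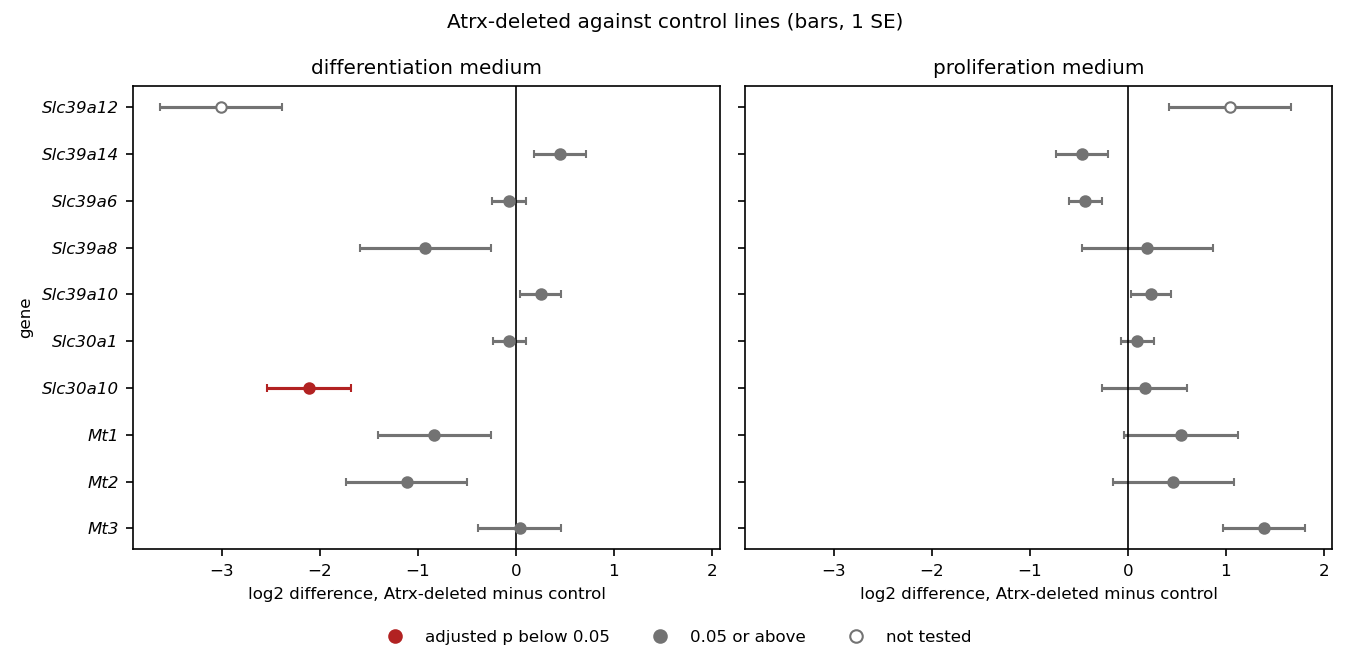
Difference of log2(TPM + 1) between Atrx-deleted and control lines for each of the 10 genes in differentiation and in proliferation medium, with 1 SE from limma as bars. Slc39a12 at -3.01 and Slc30a10 at -2.11 in differentiation medium lie farthest from 0. Slc39a12, drawn with open symbols, has no test in either medium, and Slc30a10 passed in differentiation medium.

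Metallothionein transcripts were abundant. Mt1, Mt2 and Mt3 together came to 3035, 1874 and 8324 TPM in the Atrx-deleted lines mA16d#4, mA19d#4 and mA19d#7 in differentiation medium, against 6727 and 5366 TPM in the control lines. In proliferation medium their sum was 1281, 2881 and 1714 TPM in Atrx-deleted lines against 1233 and 1218 TPM in control lines. The control lines were close to each other in each medium, whereas the Atrx-deleted lines spread widely and their order was not the same in both media: mA19d#4 had the most in proliferation and the least in differentiation medium. The sum was 0.188% to 0.834% of a library's TPM in Atrx-deleted lines in differentiation medium and 0.538% and 0.674% in control lines.

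Mt1 and Mt2, the broadly expressed metal-inducible forms, varied together. Mt1 had 1385, 733 and 3902 TPM in Atrx-deleted lines against 3019 and 2628 TPM in control lines in differentiation medium. In proliferation medium it had 756, 1647 and 977 TPM in Atrx-deleted lines, all above the 746 and 719 TPM of the control lines, mA16d#4 only just. Mt2 had 899.5, 458 and 2742 TPM in Atrx-deleted lines against 2742 and 1851 TPM in control lines in differentiation medium, and 374, 877 and 565 TPM against 416 and 411 TPM in proliferation medium.

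The Mt1 and Mt2 groups overlapped in differentiation medium, since mA16d#4 and mA19d#4 were below both control lines and mA19d#7 was not. The differences were -0.83 (adjusted p = 0.451) for Mt1 and -1.11 ± 0.62 (adjusted p = 0.345) for Mt2. Without the mA19d#7 library Mt2 was lower in the remaining Atrx-deleted lines (-1.81, adjusted p = 0.0388) and Mt1 missed the threshold (-1.48, adjusted p = 0.0557), in a fit where 5.97% of all tested genes passed. In proliferation medium neither differed past the test (0.54, adjusted p = 0.726, and 0.46, adjusted p = 0.788).

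Between media, Mt1 and Mt2 were higher in differentiation medium in both control lines, by 2.02 and 1.87 for Mt1 and by 2.72 and 2.17 for Mt2. Among the Atrx-deleted lines the response of Mt2 was 1.26 in mA16d#4, -0.94 in mA19d#4 and 2.28 in mA19d#7, and that of Mt1 was 0.87, -1.17 and 2.00 in the same lines. Neither passed the test over the 3 lines (Mt1 0.57, adjusted p = 0.657, and Mt2 0.87, adjusted p = 0.504). Without the mA19d#7 differentiation library the values were -0.08 and 0.17. Mt1 and Mt2 are related genes that lie side by side, and whether reads of one were counted to the other was not tested. The ratio of Mt1 to Mt2 stayed between 1.10 and 2.02 over the 10 libraries.

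Mt3, the nervous system form first described as a growth inhibitory factor of neurons, differed from the other metallothioneins in having a response of the same sign in every line. Mt3 had 750.1, 683 and 1680 TPM in Atrx-deleted lines against 965 and 887 TPM in control lines in differentiation medium, and the groups overlapped (0.04, adjusted p = 0.972). The overlap came from mA19d#7 alone: the other Atrx-deleted libraries were below both control libraries, and without mA19d#7 the difference was -0.37 (adjusted p = 0.554). In proliferation medium Mt3 had 152, 357 and 172 TPM in Atrx-deleted lines, all above the 71.5 and 89.0 TPM of the control lines. The means there were 227 ± 113 TPM (n = 3) and 80.2 ± 12.3 TPM (n = 2), and the difference of 1.39 ± 0.42 did not pass (adjusted p = 0.192, and 0.0623 without the mA19d#7 differentiation library).

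The Mt3 response to differentiation medium was 2.30, 0.94 and 3.28 in the Atrx-deleted lines mA16d#4, mA19d#4 and mA19d#7, against 3.74 and 3.30 in the control lines. Over the Atrx-deleted lines it was 2.17 ± 0.38, place 17 of 15660 genes, with an adjusted p of 0.0755. It passed without the differentiation library of mA19d#7 (1.76, adjusted p = 0.0334) and without that of mA19d#4 (2.41, adjusted p = 0.0496), the first in a fit where 2.22% of all tested genes passed. The difference of the responses, -1.35, had an adjusted p of 0.694. Mt3 made up 24.7%, 36.5% and 20.2% of metallothionein TPM in Atrx-deleted lines in differentiation medium against 14.4% and 16.5% in control lines, and 11.8%, 12.4% and 10.1% against 5.80% and 7.30% in proliferation medium. Its share was higher in every Atrx-deleted than in every control library within each medium.

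**Figure D4:**
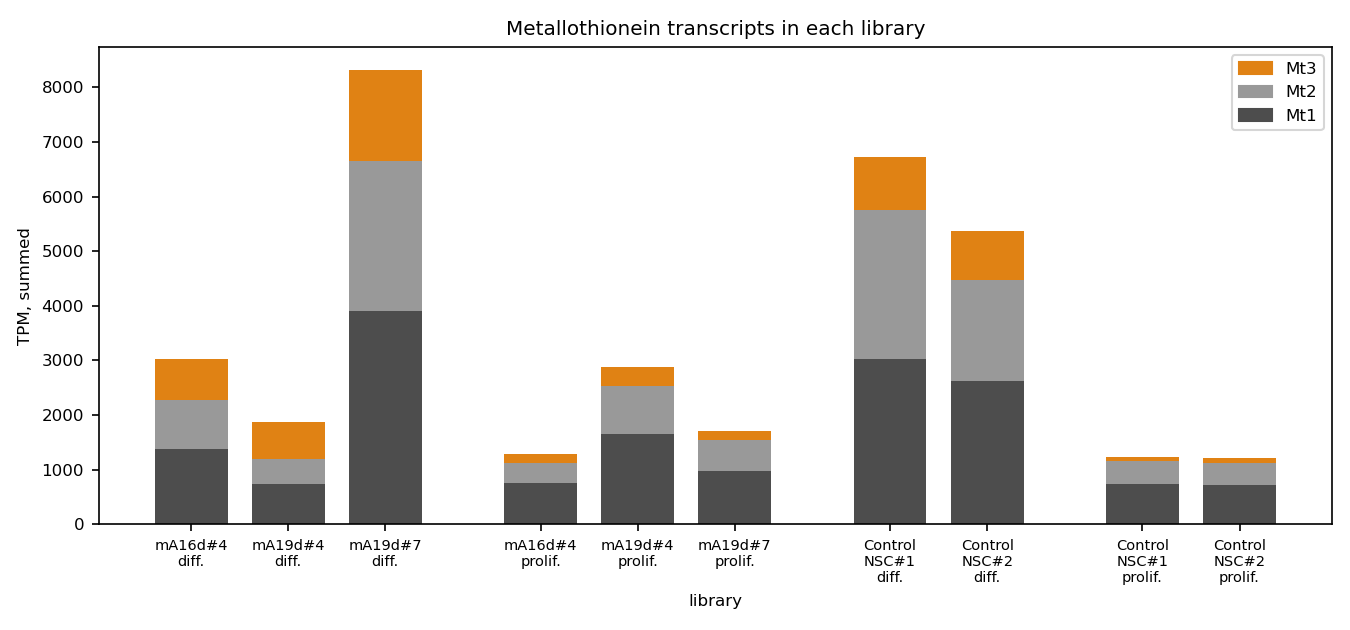
Summed TPM of Mt1, Mt2 and Mt3 in each of the 10 libraries, stacked by gene, Atrx-deleted before control lines. The Atrx-deleted bars in differentiation medium run between 1874 and 8324 TPM, and the control bars there are 6727 and 5366 TPM.

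Counted over the 10 genes, the libraries of Atrx-deleted and control lines did not overlap for 3 genes in differentiation medium (1 higher, 2 lower) and for 5 in proliferation medium (3 higher, of which Slc39a8 is near the floor, and 2 lower), against 36.3% and 38.0% of all tested genes. Between media, the libraries did not overlap for 4 genes in the Atrx-deleted lines (Slc39a12, Slc39a6 and Mt3 higher and Slc30a10 lower in differentiation medium), against 16.5% of all tested genes, and for 8 in the control lines (6 higher, 2 lower), against 61.3%. Nothing was read from the control count, which the choice of genes used. The counts between Atrx-deleted and control lines share those control libraries, so nothing was read from them either.

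Other genes of zinc handling gave no call. Of 9 other ZIP importers tested, none passed in any of the 5 contrasts, and the median difference between Atrx-deleted and control lines was -0.15 in differentiation and -0.10 in proliferation medium. The highest were Slc39a7 and Slc39a1. Slc39a7, a ZIP transporter located in the endoplasmic reticulum, had 274 ± 80.6 TPM in Atrx-deleted and 296 ± 8.84 TPM in control lines in differentiation medium. Slc39a1 had 241 ± 67.4 TPM and 208 ± 2.14 TPM there. Of 8 other ZnT genes, 5 passed the filter and none the test, with medians of -0.11 and -0.20 in the same comparisons. Slc30a9 had 82.4 ± 12.1 TPM in Atrx-deleted and 100.5 ± 8.91 TPM in control lines in differentiation medium, and Slc30a5, which loads zinc into the secretory pathway, had 80.3 ± 28.1 TPM and 83.7 ± 0.944 TPM.

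Of 4 other genes of the zinc response, none passed in any contrast, with medians of -0.10 and 0.01. Trpm7, a channel that conducts zinc, had 60.9 ± 10.2 TPM in Atrx-deleted and 70.6 ± 1.73 TPM in control lines in differentiation medium. Gpr39, a zinc-sensing receptor, had 52.2 ± 23.1 TPM and 49.6 ± 2.48 TPM. Mtf1, which encodes MTF-1 and was named after its values were seen, had 31.1 ± 6.79 TPM in Atrx-deleted and 34.4 ± 1.33 TPM in control lines in differentiation medium, and 26.0 ± 3.68 TPM and 31.9 ± 0.250 TPM in proliferation medium.

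Of 19 genes of manganese, iron and copper transport, none passed in any contrast with all libraries. The medians were 0.02 between Atrx-deleted and control lines in differentiation and -0.01 in proliferation medium. Without the mA19d#7 differentiation library, Atp7b was higher in Atrx-deleted lines in proliferation medium (1.94, adjusted p = 0.0371), where 1.59% of all tested genes passed. Ccs was then higher in differentiation than in proliferation medium in control lines (0.84, adjusted p = 0.0410). The highest were the ferritin genes. Fth1 averaged 3389 ± 2945 TPM in Atrx-deleted and 2024 ± 244 TPM in control lines in differentiation medium, and Ftl1 2403 ± 385 TPM and 2182 ± 202 TPM.

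Genes that share inducers with Mt1 and Mt2 were also counted. Of 15 genes of the response to oxidants and metals, 1 passed between Atrx-deleted and control lines in differentiation medium. Of all tested genes, 2.89% passed there in either direction and 1.33% were lower. The gene was Cat, which encodes catalase and was lower (173 ± 13.5 TPM against 284 ± 13.9 TPM, -0.71, adjusted p = 0.0321). Without the mA19d#7 differentiation library the Cat difference was -0.77 (adjusted p = 0.0198). None passed in proliferation medium or within the Atrx-deleted lines, where Hmox1 passed without the mA19d#7 differentiation library (1.18, adjusted p = 0.0103). In that fit 2.22% of all tested genes passed. In control lines, where 4.51% of all tested genes passed, Gclc, an enzyme of glutathione synthesis, was higher in differentiation medium (1.23, adjusted p = 0.0199). The list's median was -0.14 between Atrx-deleted and control lines in differentiation medium.

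The list of glucocorticoid-induced genes had 10 tested members, among them Nr3c1, the gene of the receptor itself. Of these 10, 3 were lower in Atrx-deleted than in control lines in differentiation medium, beside 1.33% of all tested genes. The list's median was -0.52, beside 0.02 over all tested genes. The 3 were Sult1a1 (6.44 ± 1.26 TPM against 22.4 ± 7.23 TPM, -1.63, adjusted p = 0.0355), Sgk1, a kinase that regulates ion transport (24.9 ± 3.45 TPM against 65.6 ± 3.66 TPM, -1.37, adjusted p = 0.0357), and Tsc22d3, which encodes the protein GILZ (66.4 ± 13.4 TPM against 125 ± 15.6 TPM, -0.91, adjusted p = 0.0417). Without the mA19d#7 differentiation library the same 3 passed. None passed in proliferation medium, where the median was -0.50. Without the mA19d#7 differentiation library Nr3c1 was lower there (-0.72, adjusted p = 0.0361), in a fit where 1.59% of all tested genes passed. In the control lines Sult1a1, Sgk1 and Tsc22d3 were also the 3 that passed between media, higher in differentiation medium by 2.11, 1.34 and 0.98. Of all tested genes, 4.51% passed there in either direction. Both comparisons share the control differentiation libraries.

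Of 14 astrocyte markers, 2 were lower in Atrx-deleted than in control lines in differentiation medium, beside 1.33% of all tested genes. None of the 14 markers passed in proliferation medium, with list medians of -0.31 in differentiation and 0.69 in proliferation medium. Their summed level ran between 4423 and 8971 TPM in Atrx-deleted lines and between 10869 and 11766 TPM in control lines in differentiation medium, and between 4189 and 5107 TPM and between 2397 and 3303 TPM in proliferation medium. Apoe carried the gap in differentiation medium. Without it, a choice made after seeing the data, the other 13 summed to 7520, 3446 and 7017 TPM in the Atrx-deleted lines mA16d#4, mA19d#4 and mA19d#7, against 5445 and 5126 TPM in the control lines, and the groups overlapped. All 14 reached 1 TPM in every library. The 2 that were lower were Apoe (1128 ± 280 TPM against 6032 ± 860.3 TPM) and Slc4a4 (124 ± 42.2 TPM against 636 ± 53.8 TPM), and others had higher means in Atrx-deleted lines, among them Gfap (498 TPM, of which mA19d#7 had 1411 TPM, against 3.11 TPM). Without the mA19d#7 differentiation library Clu was also lower (-2.13, adjusted p = 0.0409), in a fit where 5.97% of all tested genes passed. Sox9 was then higher in proliferation medium (0.93, adjusted p = 0.0382), where 1.59% passed. Slc1a2 and Slc4a4 were then higher in differentiation than in proliferation medium within the Atrx-deleted lines, where 2.22% passed. With all libraries, 5 were higher in differentiation than in proliferation medium in control lines, where 4.51% of all tested genes passed in either direction. They were Slc1a2, Slc1a3, Apoe, Slc4a4 and Fgfr3. Of 9 neuron markers, Nefl was higher and Rbfox3 lower in Atrx-deleted lines in differentiation medium, beside 2.89% of all tested genes in either direction. Nefl missed the threshold once the mA19d#7 library was left out (adjusted p = 0.0590). The part of these cell types in the values of Slc39a12, Slc30a10 and the metallothioneins was not tested.

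By the mean absolute difference of centred log2(TPM + 1) values over the 10 libraries, the genes most like Slc39a12 were Pla2g5 (0.687), Ctgf (0.728), Ucma (0.746), Adra2a (0.758) and Psd2 (0.764). Pla2g5, for example, had 1.53, 2.10 and 3.60 TPM in Atrx-deleted and 17.3 and 9.93 TPM in control lines in differentiation medium. The genes most like Mt2 were Mt1 (0.190), then at a distance Nuak1 (0.339), Kcnk2 (0.358), Fgf2 (0.361) and Prdx6 (0.364). These are descriptions over libraries that share lines and media.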

How the data were processed

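Total RNA of 10 cultures was sequenced with a TruSeq RNA kit after RNeasy extraction, per the labels' protocols, and aligned with STAR to mm10, per the submitters' processing notes. No STAR version, annotation or quantifier is given in the sources used here. The authors deposited log2 values for 21101 genes. All libraries hold the same sorted values, with a floor of -8 that 1213 genes share per library, and the back-transformed values add up to 997524 per library, so the deposited log2 values were read as quantile-normalised log2 TPM. Equal ranks give equal values in different libraries. Depth is unknown, and no counting intervals were given.

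From the TPM recovered from these values, log2(TPM + 1) entered limma 3.58.1 in R 4.3.3 (mean-variance trend, 4 group means over all 10 libraries, 6 residual degrees of freedom). The 15660 genes that reached 1 TPM in 2 or more libraries were tested, with Benjamini-Hochberg adjustment over all of them and a threshold of 0.05. Fold changes on this scale understate changes of low genes. The script was tested on simulated data. Alternatives were the pseudocount, filter, trend, scaling, compared groups alone, a block for the line and leaving out each library or line.

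The 10 genes and all lists were chosen with earlier results of these data known. Named were the 10 genes, Atrx, up to 3 higher and 3 lower called members of each other list, or its 2 highest where none was called, and the 5 genes most like Slc39a12 and Mt2, passing over clone-type symbols. Promoter windows are from RefSeq, GRCm38.p6. Mt4 was not analysed here. The result of a further marker list is not reported here. Libraries of the 2 media share line names, and the correlation over genes of their deviations from group means was 0.159 for mA16d#4, 0.404 for mA19d#4, -0.194 for mA19d#7 and 0.0624 for the control lines.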

Additional observations from a re-analysis of the deposited data

Results flagged for a closer look

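The response of Slc30a10 to differentiation medium had opposite signs in the lines: all 3 Atrx-deleted lines were lower in differentiation than in proliferation medium and both control lines higher, and the difference of the responses was -2.28 on the log2(TPM + 1) scale (limma adjusted p = 0.425). Slc39a14 went the other way, higher in all 3 Atrx-deleted lines, though by only 0.03 in mA16d#4, and lower in both control lines. Its difference was 0.92 (adjusted p = 0.660), and 0.67 without the mA19d#7 differentiation library. Neither difference passed the test, although 3 members did so at an unadjusted p under 0.05, against 7.02% of all tested genes. The control response, which the choice of genes used, enters these differences, so nothing was read from that count.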

How the results depend on the processing

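The number of the 10 genes called between Atrx-deleted and control lines in differentiation medium, 1 as reported, was 0 with no filter and 0 with the compared groups alone, 0 to 2 when 1 library was left out and 0 to 1 when 1 line was left out. It was 2 without the mA19d#7 differentiation library, Slc30a10 and Mt2. Between media in the Atrx-deleted lines, 0 as reported, it was 0 to 1 when 1 library was left out. The cause was not tested. In proliferation medium and for the difference of the responses it was 0 in 25 of 25 alternatives. With the line as a replicate block the calls were 0 in proliferation medium and 1 in differentiation medium, and Mt3 between media in the Atrx-deleted lines had an adjusted p of 0.115, so the block changed no call among the 10 genes. Over all genes the calls were 452 in differentiation medium (1 to 935 over alternatives, 2 with the compared groups alone), 72 in proliferation medium (0 to 249), 13 between media in Atrx-deleted lines (0 to 348, 6 with the block) and 1 for the difference of the responses (0 to 30, 0 with the block). Of 1046 values of the 10 genes under alternatives, 991 kept direction and side of the threshold or stayed within the replicate spread, 10 lost a call, 3 gained one, 42 moved, of which 34 changed sign with neither value past the threshold, and 0 with a call changed sign. With 2 and 3 libraries a group and unknown depth, small differences and levels near the floor, as for Slc39a8, could not be resolved.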

Other observations

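The library labelled mA19d#7 in differentiation medium had the highest metallothionein sum. Among the differentiation libraries it also had the most Cp, Atp7b and Fth1, metal-handling genes picked after their values were seen. Others went the other way there. Slc30a10 was at its lowest, at 3.75 TPM. The 4 other genes of the zinc response summed to 119 TPM, against 154 TPM or more in every other library. The other ZnT genes summed to 218 TPM, the lowest among the differentiation libraries. Ceruloplasmin, Cp, a copper-containing ferroxidase, had 55.8, 22.8 and 496.6 TPM in the Atrx-deleted lines mA16d#4, mA19d#4 and mA19d#7 in differentiation medium, against 33.6 and 32.7 TPM in the control lines. Atp7b, a copper exporter, had 37.0, 26.7 and 258 TPM in the same Atrx-deleted lines, against 21.2 and 20.6 TPM in the control lines. Atp7b was also higher in all 3 Atrx-deleted lines in proliferation medium, at 71.7, 40.3 and 25.7 TPM against 10.05 and 10.4 TPM, a difference of 1.94 that did not pass (limma adjusted p = 0.312) and passed without the mA19d#7 differentiation library (adjusted p = 0.0371). Fth1, the ferritin heavy chain, had 2628, 899.5 and 6640.2 TPM against 1851 and 2197 TPM in differentiation medium.

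Hmox1, the heme oxygenase that oxidants and heme induce, averaged 364 ± 296 TPM in differentiation medium and 84.5 ± 2.995 TPM in proliferation medium in Atrx-deleted lines, and 281 ± 23.4 TPM and 77.3 ± 3.33 TPM in control lines. Its difference between media was 1.80 in Atrx-deleted lines (adjusted p = 0.108) and 1.85 in control lines (adjusted p = 0.0682). Without the mA19d#7 differentiation library both passed, with 1.18 (adjusted p = 0.0103) and 1.85 (adjusted p = 0.000928).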
